A study of Homo sapiens with 6 samples.

Results

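Vitamin A is handled by a short chain of proteins, and 10 of their genes were followed in LX-2 cells: RDH10, DHRS3, ALDH1A3, CRABP2, RBP4 and the nuclear receptor genes RARA, RARB, RARG, RXRA and RXRB. They were chosen by name as genes of retinoic acid synthesis, retinoid binding and retinoid reception, and all 10 were present among the 17911 genes of the deposited table and passed the filter on low values. RBP4 passed it only through its level in the mutant libraries. LX-2 is an immortalised human hepatic stellate cell line, a culture model of the liver cells that make scar matrix. Poly(A) RNA was sequenced from wild-type LX-2 cells (WT, 3 libraries) and from LX-2 cells with a mutation in exon 3 of MPI (mutant, 3 libraries), all grown in serum-containing medium with no further treatment named in the labels. The MPI product is the isomerase that links glucose breakdown to the mannose supply for protein glycosylation. The labels say neither how the mutation was made nor whether the mutant cells were 1 clone, and they do not mark the replicates as separate cultures. The p-values therefore reflect only how much these libraries vary, and that variation may be technical.

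Retinol is oxidised reversibly to retinaldehyde, and retinaldehyde irreversibly to retinoic acid, which binds receptors of the RAR family. A RAR works as a heterodimer with a member of the RXR family, and the pair sits on response elements near target genes, where it represses without ligand and activates with it. Hepatic stellate cells are the body's main store of vitamin A, held as retinyl esters in lipid droplets, and the loss of these droplets is a hallmark of stellate cell activation. Comparing the genotypes asks how the levels of these transcripts differ between mutant and WT cells.

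A response element of this system is shown with the promoter window that carries it. Beside it stands 1 promoter window of each gene that differed between the genotypes, RXRA and DHRS3. The sequences are RefSeq windows (GRCh38.p14) of 250 bases before to 50 bases after a transcription start, read 5′ to 3′ on the gene's strand. Capitals mark a direct repeat of 2 units of 6 bases with 5 bases between them, searched on both strands. A unit could be AGGTCA as the consensus, GGGTCA with another first base, AGTTCA with another base inside, or GGTTCA with both exchanges. The RARB window is chr3:25428013-25428312 (plus strand), the RXRA window chr9:134326205-134326504 (plus strand) and the DHRS3 window chr1:12618161-12618460 (minus strand). These genes have other windows that are not shown. The DHRS3 window lies upstream of the annotated gene span given below, and the RXRA window lies inside its span. Which start sites LX-2 cells use was not tested.
RARB: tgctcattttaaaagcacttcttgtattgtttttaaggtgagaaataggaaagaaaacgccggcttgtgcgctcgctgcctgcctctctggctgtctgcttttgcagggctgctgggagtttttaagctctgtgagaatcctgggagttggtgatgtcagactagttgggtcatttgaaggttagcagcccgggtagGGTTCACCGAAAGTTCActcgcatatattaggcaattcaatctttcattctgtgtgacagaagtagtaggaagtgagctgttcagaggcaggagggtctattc
RXRA: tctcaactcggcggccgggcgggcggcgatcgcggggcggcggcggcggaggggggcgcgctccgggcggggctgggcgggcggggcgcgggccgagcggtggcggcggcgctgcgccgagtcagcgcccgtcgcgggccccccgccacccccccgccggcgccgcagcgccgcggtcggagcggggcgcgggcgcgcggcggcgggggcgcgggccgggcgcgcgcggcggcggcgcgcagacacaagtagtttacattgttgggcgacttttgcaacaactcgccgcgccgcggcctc
DHRS3: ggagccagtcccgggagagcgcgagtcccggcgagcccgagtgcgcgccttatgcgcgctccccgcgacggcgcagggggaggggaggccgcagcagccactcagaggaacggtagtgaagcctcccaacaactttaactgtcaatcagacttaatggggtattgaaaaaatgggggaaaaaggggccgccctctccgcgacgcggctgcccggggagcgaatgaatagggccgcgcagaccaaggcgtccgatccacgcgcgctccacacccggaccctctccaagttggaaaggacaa
The repeat in the RARB window is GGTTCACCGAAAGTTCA at 25428210 to 25428226 of chromosome 3, and it begins 53 bases before the start site. This is the retinoic acid response element of RARB, through which retinoic acid is known to raise this receptor gene's own transcription. It was the 1 match among 20 windows of the 9 members that the sequence table holds, against 31 of 35116 windows, or 0.0883%, over all genes. Both units of this known element, GGTTCA and AGTTCA, were among those searched for. Finding it was therefore no test, and the shares do not show that the members are rich in such repeats. Repeats with 1 or 2 bases between the units were found in none of the 20 member windows. The RXRA window shown was the most GC-rich of the 20 at 84% GC, against a median of 58.7% over all windows. A match is a description of the letters and shows no binding in these cells.

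Before the results, some facts of the libraries bear on them. Recovered reads were 27037905 to 34970840 per library over the listed genes. MPI itself measured 1277 ± 18.5 (SD, n = 3) in WT and 1021 ± 38.2 in mutant libraries, which gives -0.32 ± 0.07 (SE) as log2 fold change (limma adjusted p = 0.00648), and these counts over the whole gene do not show which sequence its exon 3 carried. The libraries numbered 1 stood apart from those numbered 2 and 3 in both genotypes. Of 17 stellate cell markers, 14 were listed, among them COL1A1, VIM and PDGFRB, with a summed level of 163579 to 172842 in WT and 184124 to 213084 in mutant libraries. That sum is carried by VIM and COL1A1, and by the test 2 of the 14 rose (VIM and TIMP1) and 6 fell. Called markers thus made up 57.1% of the 14, beside 32.6% of all tested genes. Among those that fell were ACTA2, from 559 ± 60.6 to 284 ± 5.70, and TAGLN, from 3806 ± 905 to 1570.5 ± 357, both genes of the contractile apparatus of activated stellate cells. DES, LRAT and DCN were not analysed here. Summed levels of endothelial markers (5 of 8 listed) were 186 to 232 in WT and 519.9 to 761 in mutant libraries, those of macrophage markers (4 of 7, mostly CD14) 523 to 604 and 324 to 356, those of hepatocyte markers (2 of 10) 172 to 194 and 68.6 to 119, and those of cholangiocyte markers (3 of 5, mostly SOX9) 1921 to 2155 and 2710.4 to 3257. Of the macrophage markers CD14 fell, from 427 ± 41.1 to 129 ± 5.51, while CD68 and CSF1R rose and PTPRC was not called. Of the endothelial markers PECAM1 and TEK rose, and they carry the higher sum. KDR (57.3 ± 14.3 in WT and 39.3 ± 8.72 in the mutant), VWF (22.8 ± 4.61 and 18.2 ± 2.66) and STAB2 (10.5 ± 1.89 and 10.8 ± 2.90) were not called. Of the cholangiocyte markers SOX9 alone rose, from 1777 ± 103 to 2845 ± 256. KRT7 (229 ± 36.8 in WT and 205 ± 53.7 in the mutant) and KRT19 (13.4 ± 1.63 and 6.96 ± 2.48) were lower in mean and not called. Of the hepatocyte markers SERPINA1 fell, from 163 ± 9.23 to 79.2 ± 22.6, and CYP2E1 (16.5 ± 5.38 and 10.4 ± 3.95) was not called. The part of all these markers in the results below was not tested.

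Among the 10 retinoid genes, 1 rose and 1 fell in the mutant cells, while 8 did not pass the test. DHRS3, which returns retinaldehyde to retinol, rose 2.21-fold, and RXRA, a partner receptor of the RARs, fell by 44.4%. The test was limma-trend on log2(value + 1) across 17893 genes with Benjamini-Hochberg adjusted p under 0.05, and it called 16% of all tested genes higher and 16.6% lower. Of the 10 genes 20% were called in either direction, beside 32.6% of all tested genes. The genotypes did not overlap for these same 2 genes, RXRA and DHRS3, beside 46.7% of all tested genes. Their median log2 fold change was -0.01, against -0.0031 over all tested genes. Values are normalised read counts, that is, reads divided by 1 size factor per library, and a positive log2 fold change, given with its SE, means a higher level in the mutant. In bulk RNA, fewer cells that express a gene and less RNA of it per cell cannot be told apart.

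**Figure D1:**
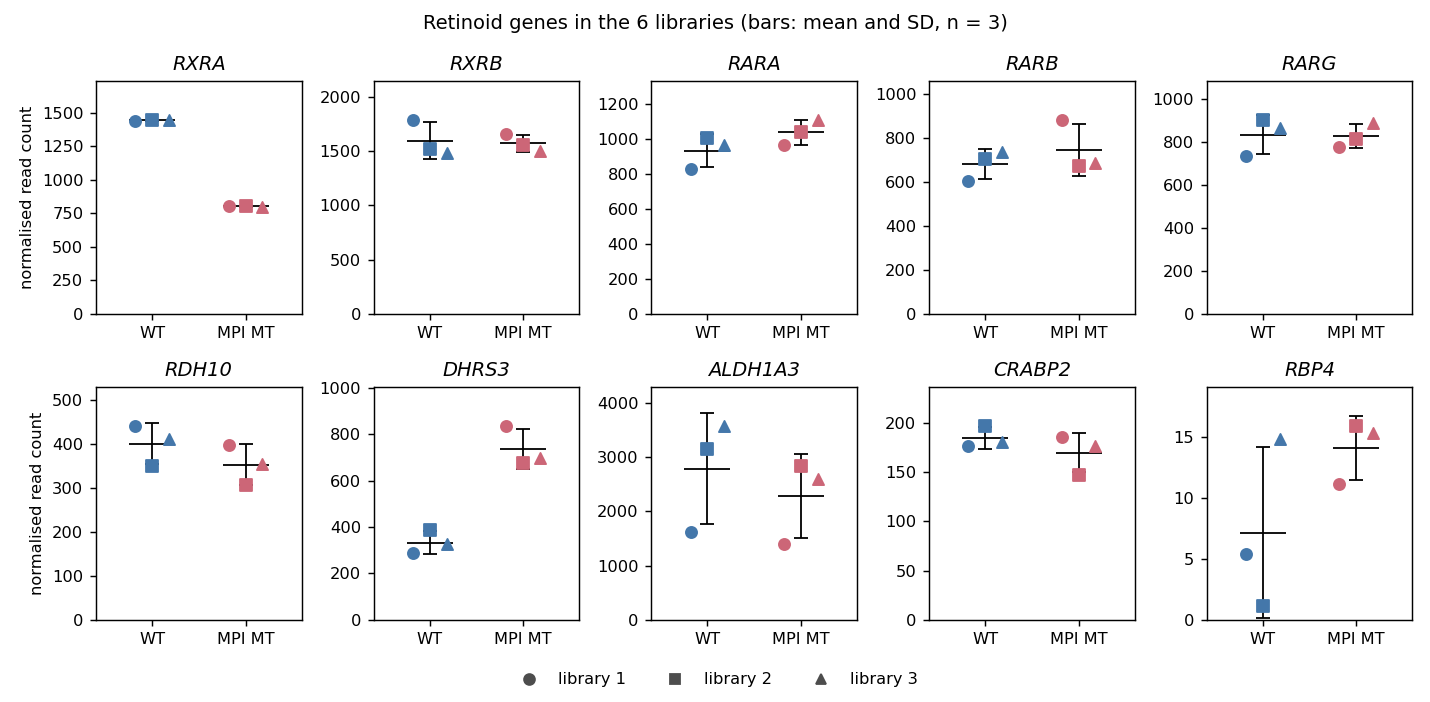
Normalised read count of each of the 10 retinoid genes (y axis, from 0) in the 3 WT and 3 mutant (MPI MT) libraries (x axis), with marker shape giving the library number and bars the mean and SD. For RXRA the WT libraries lie between 1440.1 and 1449 and the mutant ones between 798 and 807, for DHRS3 the mutant libraries lie above all WT libraries, and for the other 8 genes the genotypes overlap.

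Of the receptors, the RXR genes are taken first. RXRA (ENSG00000186350, GRCh38 chromosome 9, 134317098 to 134440585, plus strand) measured 1440.1, 1445 and 1449 in WT, and 802, 807 and 798 in the mutant. The genotypes did not overlap, and every mutant library was close to the same fraction of its WT counterpart, with ratios of 0.557, 0.559 and 0.551 for the libraries numbered 1, 2 and 3. The log2 fold change was -0.85 ± 0.06 (limma adjusted p = 3.90e-05). The SD between libraries, 4.31 in WT and 4.53 in the mutant, was smaller than the 38.8 and 27.8 that counting error alone gives at this depth, so the SE of the fit, which borrows its spread from genes of like level, is the error to read. RXRB (ENSG00000204231, chromosome 6, 33193588 to 33200688, minus strand), the second RXR gene, measured 1790.4, 1519 and 1484 in WT and 1657, 1555 and 1505 in mutant libraries. Its ranges overlapped, and the test gave no call (log2 fold change -0.02 ± 0.09, limma adjusted p = 0.887). Its sign turned, to 0.027, without both libraries numbered 1.

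Compared per length, RXRB was the more abundant of both RXR transcripts. Per kilobase of annotated exon, RXRB stood at 408 ± 42.8 in WT and 401 ± 19.8 in the mutant, and RXRA at 130.3 ± 0.389 and 72.4 ± 0.409. The exon length used is the union over all annotated transcripts, 11083 bases for RXRA and 3920 for RXRB, so a gene whose cells use a short transcript is understated. On that scale RXRA made up 24.3% ± 1.90 of the summed RXRA and RXRB level in WT and 15.3% ± 0.618 in mutant libraries. The sum of both was 538 ± 42.4 and 473 ± 19.9 per kilobase. The third RXR gene, RXRG, was not analysed here.

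The RAR genes, whose products bind retinoic acid itself, gave no call. RARA (ENSG00000131759, chromosome 17, 40309192 to 40357643, plus strand) measured 829, 1007 and 962 in WT and 964, 1039.9 and 1108 in mutant libraries. The mutant library was above its WT counterpart for all 3 library numbers, by ratios of 1.16, 1.03 and 1.15, but the ranges overlapped and the log2 fold change was 0.16 ± 0.09 (limma adjusted p = 0.245). With the library number as a block the limma adjusted p was 0.0593, and edgeR with that block called RARA higher (0.17, edgeR adjusted p = 0.0484). RARB (ENSG00000077092, chromosome 3, 25174332 to 25597932, plus strand), the gene with the response element shown above, measured 603, 703 and 736 in WT and 883, 672 and 685 in mutant libraries. The mutant library numbered 1 was the highest of the 6, whereas the other mutant libraries lay within the WT range. Its log2 fold change was 0.13 ± 0.13 (limma adjusted p = 0.477), and without both libraries numbered 1 it was -0.08. RARG (ENSG00000172819, chromosome 12, 53210567 to 53232980, minus strand) measured 734, 903 and 867 in WT and 779, 814 and 889 in mutant libraries. Its log2 fold change was -0.01 ± 0.10 (limma adjusted p = 0.955) and turned to 0.001 with TMM scaling.

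Per kilobase of exon the means of the 3 RAR transcripts lay between 161 and 219. In WT, RARA was at 197 ± 19.5, RARB at 184 ± 18.8 and RARG at 163 ± 17.4, and the libraries of neighbours in this order overlapped in range. In mutant libraries RARA was at 219 ± 15.2, RARB at 202 ± 31.9 and RARG at 161 ± 11.03. RARA thus held 36.2% ± 0.596 of the summed RAR level in WT and 37.7% ± 2.94 in the mutant, and RARB 33.8% ± 1.00 and 34.6% ± 4.84. Over all 10 genes the WT order per kilobase was ALDH1A3, RXRB, RARA, RARB, CRABP2, RARG, RXRA, DHRS3, RDH10 and RBP4. CRABP2 (168 ± 9.90) lay within the spread of both its neighbours, RARB and RARG, while RBP4 (4.94 ± 4.84) was far below RDH10 (75.5 ± 8.77). The DHRS3 level was 109.8 ± 16.2 in WT and 242 ± 28.8 in mutant libraries, where its range overlapped those of RARA and RARB. The RAR sum was 544 ± 54.4 in WT and 583 ± 19.3 in mutant libraries.

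**Figure D2:**
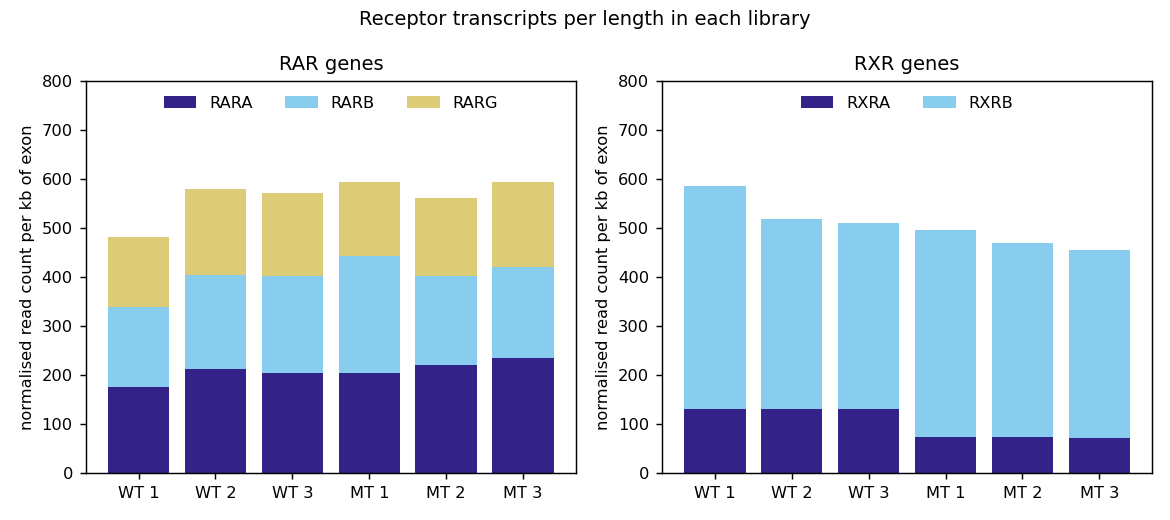
Normalised read count per kilobase of annotated exon (y axis, from 0) of the RAR genes (left) and RXR genes (right), stacked for each of the 6 libraries (x axis). The RXRA part of the bars is 130.3 per kilobase on average in WT and 72.4 in mutant libraries, beside an RXRB part of 408 and 401, while among the RAR parts the mutant library numbered 1 has RARB at 239 and RARG at 152 per kilobase.

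Of the enzymes, DHRS3 differed. RDH10 makes retinaldehyde from retinol and DHRS3 works in the opposite direction, and the proteins are known to bind and activate each other. DHRS3 (ENSG00000162496, chromosome 1, 12567910 to 12617731, minus strand) measured 288, 385 and 327 in WT and 836, 676 and 696 in mutant libraries. All mutant libraries lay above all WT libraries, with ratios of 2.91, 1.75 and 2.13 for the libraries numbered 1, 2 and 3. The log2 fold change was 1.14 ± 0.13 (limma adjusted p = 3.65e-04), with a range of 1.04 to 1.25 when 1 library was left out. Without both libraries numbered 1 it was 0.948. RDH10 (ENSG00000121039, chromosome 8, 73294612 to 73325281, plus strand) measured 442, 350.4 and 412 in WT and 399, 307 and 356 in mutant libraries. Each mutant library was lower than the WT library of the same number, by ratios of 0.903, 0.875 and 0.864. This depends on matching by number, which the labels do not give, as the mutant library numbered 3 was above the WT library numbered 2. The ranges overlapped, and the log2 fold change was -0.18 ± 0.13 (limma adjusted p = 0.319, and 0.0873 with the library number as a block).

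ALDH1A3, a retinaldehyde dehydrogenase that makes retinoic acid, measured 482 ± 177 per kilobase in WT and 395 ± 133 in the mutant, against 408 ± 42.8 and 401 ± 19.8 for RXRB, a difference within its spread in both genotypes. The gene (ENSG00000184254, chromosome 15, 100877714 to 100916626, plus strand) measured 1627, 3152 and 3572 in WT and 1403, 2842 and 2588 in mutant libraries. The libraries numbered 1 were low in both genotypes, at 0.484 of the mean of the other WT libraries and at 0.517 of that of the other mutant libraries. With genotype as the only term, the log2 fold change was -0.28 ± 0.33 (limma adjusted p = 0.563). With the library number as a block the same difference had an SE of 0.06 and passed the test (limma adjusted p = 0.00219), and it was -0.31 without both libraries numbered 1 (limma adjusted p = 2.67e-04). Each mutant library was below the WT library of its number, with ratios of 0.863, 0.902 and 0.725. Without the mutant library numbered 1 alone, which left the low WT library in place, the unblocked log2 fold change was 0.04.

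The libraries numbered 1 were therefore set against the others in a fit with genotype and that split as terms, a split known from the data and not a batch named in the labels. ALDH1A3 was lower in them (log2 difference -0.997 ± 0.06, limma adjusted p = 1.16e-07). RARA and RARG were lower too, with log2 differences of -0.20 ± 0.06 and -0.20 ± 0.07 (limma adjusted p = 0.0258 and 0.0404), and RXRB was higher by 0.18 ± 0.06 (limma adjusted p = 0.0228). This made 4 of the 10 genes, where 28.3% of all tested genes differed in that fit. Because the split was chosen after these values were seen, its p-values are a description and not a test. DHRS3 and RXRA did not pass in it, with log2 differences of -0.01 ± 0.12 and -0.0041 ± 0.06 (limma adjusted p = 0.965 for both). For DHRS3 the libraries numbered 1 deviated in opposite directions. They stood at 0.807 of the mean of the other WT libraries and at 1.22 of that of the other mutant libraries. The fit takes the same shift for both genotypes, so it cannot show this.

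**Figure D3:**
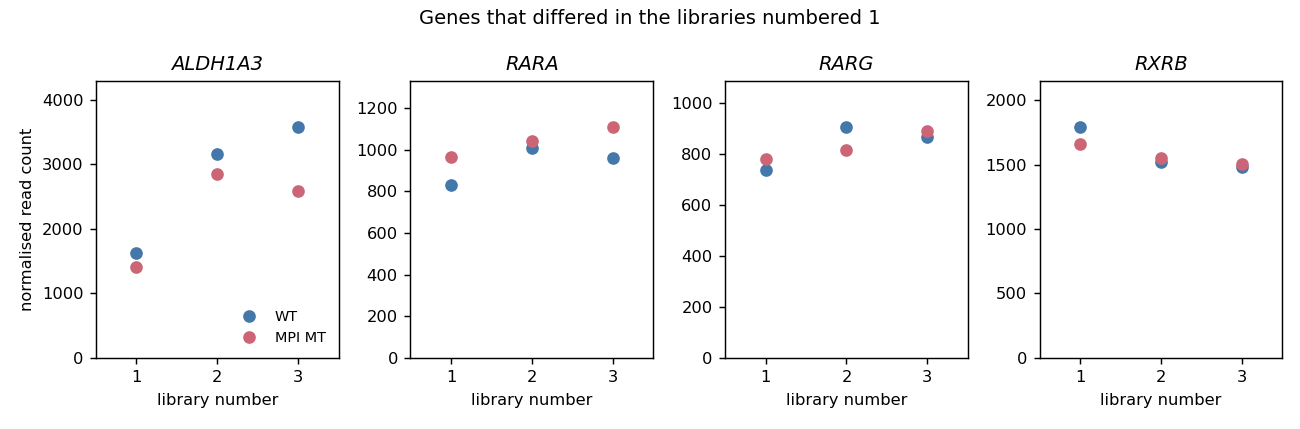
Normalised read count (y axis, from 0) by library number (x axis) for the 4 retinoid genes that differed between the libraries numbered 1 and the others, with WT and mutant (MPI MT) libraries as separate colours. ALDH1A3 is at 1627 and 1403 in the libraries numbered 1 and at 2588 to 3572 in the other 4.

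The binding proteins gave no call. CRABP2, which carries retinoic acid to RARs in the nucleus (ENSG00000143320, chromosome 1, 156699606 to 156705816, minus strand), measured 176, 197 and 181 in WT and 186, 147 and 176 in mutant libraries. The log2 fold change was -0.13 ± 0.13 (limma adjusted p = 0.498), with overlapping genotypes. RBP4, which carries retinol in blood (ENSG00000138207, chromosome 10, 93591687 to 93601744, minus strand), was near the lower end of what was measured, at 5.44, 1.16 and 14.9 in WT and 11.1, 15.9 and 15.4 in mutant libraries. These values rest on 21 WT reads and 44 mutant reads in all, and the WT library numbered 2 had the lowest value. No call was made (log2 fold change 1.31 ± 0.66, limma adjusted p = 0.162), although the test was passed with the library number as a block (limma adjusted p = 0.0474) and without WT replicate 3 (2.00, limma adjusted p = 0.0378). With edgeR and the same block it was not passed (1.01, edgeR adjusted p = 0.0846). The RBP4 mean was 7.16 ± 7.01 in WT and 14.1 ± 2.62 in the mutant, so only the mutant libraries brought it past the filter of 10. That filter favoured a higher mutant level, and the passes of RBP4 are no support for a rise. The log2 fold change was 0.81 with a pseudocount of 5, so its size depends on that choice.

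**Figure D4:**
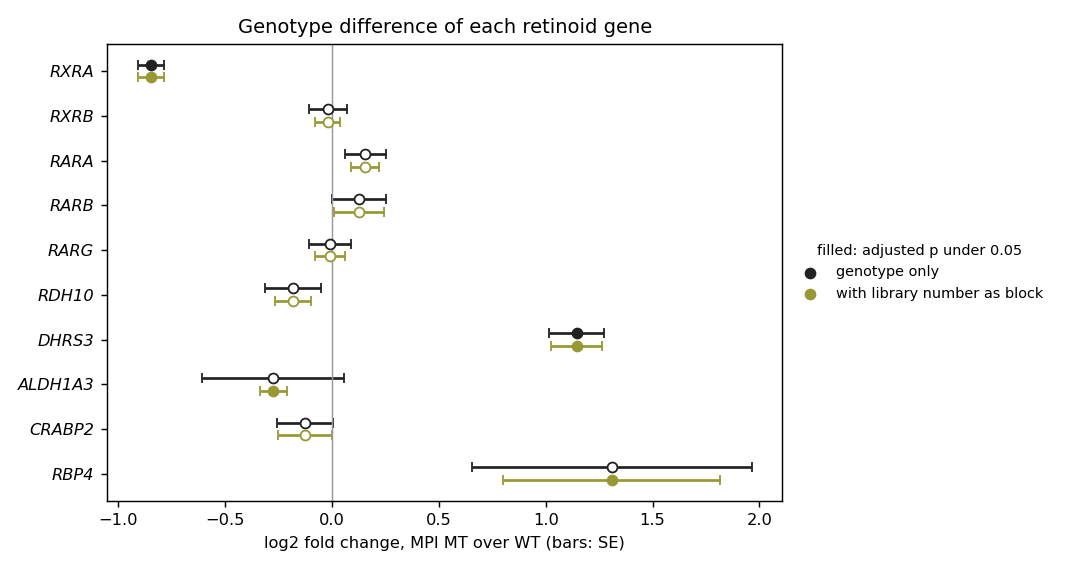
Log2 ratio of mutant to WT level (x axis, bars: SE) for the 10 retinoid genes (y axis), fitted with genotype only and with the library number as a block, filled where the adjusted p was under 0.05. RXRA at -0.85 and DHRS3 at 1.14 are filled in both fits, ALDH1A3 at -0.28 and RBP4 at 1.31 with the block only.

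With the library number as a block, 2 of the 10 genes rose and 2 fell, while the share of all tested genes called went to 25.1% higher and 24.6% lower, 49.8% in either direction. RBP4, among those that rose, had passed the filter on low values only through its mutant libraries. Some of the 10 genes share annotated exon bases with a gene on the opposite strand, and whether reads were counted by strand is unknown here. Reads of such stretches cannot be assigned with certainty. ALDH1A3 shares 1585 bases with AC015712.2, RARA 556 with RARA-AS1 and 291 with AC080112.3, RXRB 244 with SLC39A7, and RARB 28 with TOP2B. RDH10 shares 278 bases with RDH10-AS1, which was not analysed here.

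Around these genes, the wider retinoid pathway was measured with 7 lists, which hold 94 tested genes besides the 10. Of these, 23 rose and 28 fell, with a median log2 fold change of -0.08. The number that rose was 15 without mutant replicate 3. Called genes made up 54.3% of the 94, beside 32.6% of all tested genes, in lists chosen with results of these data known. By list the called share was 83.3% for synthesis and clearance, 62.5% for binding and uptake and 35.3% for the other enzymes. It was 62.5% for ester storage, 36.4% for receptors that pair with RXR, 45% for coregulators and 78.9% for genes induced by retinoic acid.

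Retinoic acid synthesis and clearance had the median log2 fold change farthest from 0 of the 7 lists, at -1.12, and of 6 measured genes 1 rose and 4 fell. CYP26B1, which hydroxylates retinoic acid and so removes it, measured 963, 908 and 1035 in WT and 59.4, 51.6 and 54.2 in mutant libraries. The groups were far apart, with a 17.6-fold lower mean in the mutant (log2 fold change -4.11 ± 0.11, limma adjusted p = 9.63e-07). ALDH1A2, a second retinaldehyde dehydrogenase, measured 92.6, 112 and 126 in WT and 7.43, 6.56 and 3.07 in mutant libraries, the latter on 18 reads in all. Its log2 fold change was -4.11 ± 0.32 (limma adjusted p = 5.14e-05) and -3.45 with a pseudocount of 5. CYP2S1, a cytochrome P450 that can oxidise retinoic acid, rose from 273 ± 18.5 to 639 ± 27.7. CYP1B1, which can oxidise retinol and retinaldehyde, fell from 132 ± 35.8 to 65.1 ± 15.6 (limma adjusted p = 0.0173, but 0.0654 without WT replicate 2 and 0.0699 without WT replicate 3).

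Of 8 measured genes of retinoid binding and uptake, 2 rose and 3 fell, with a median log2 fold change of -0.36. RBP7, a cellular retinol-binding protein, measured 148, 127 and 174 in WT and 4.64, 4.69 and 7.16 in mutant libraries. That is a 27.2-fold lower mean, on 17 mutant reads in all (log2 fold change -4.55 ± 0.25, limma adjusted p = 1.03e-05, and -3.88 with a pseudocount of 5). STRA6, the membrane receptor through which cells take up retinol from RBP4, rose from 8.59 ± 1.85 to 56.7 ± 7.83 (log2 fold change 2.60 ± 0.25, limma adjusted p = 1.67e-04), a gene named after its values were seen. SCARB1, a lipoprotein receptor, rose from 1541 ± 75.4 to 1911 ± 47.9.

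Of 17 other retinol and retinaldehyde enzymes, 5 rose and 1 fell, with a median log2 fold change of 0.17. AKR1B1 and AKR1C3, aldo-keto reductases that can reduce retinaldehyde, rose from 3140.1 ± 173 to 4906 ± 452 and from 118 ± 23.7 to 196 ± 15.3. RETSAT, the retinol saturase, rose from 1045 ± 37.6 to 1366 ± 2.53. DHRS2, a relative of DHRS3, fell from 4527 ± 700.5 to 2351 ± 501 (limma adjusted p = 0.00310, and 0.0530 with the library number as a block).

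Retinyl ester storage and breakdown genes moved both ways, as 5 rose and 5 fell of 16 measured, with a median log2 fold change of -0.12. The 4 with the largest changes at this level all fell. CES1, a carboxylesterase that can hydrolyse retinyl esters, measured 243, 95.5 and 93.5 in WT and 24.1, 3.75 and 3.07 in mutant libraries, with the libraries numbered 1 highest in both genotypes. Its log2 fold change was -4.05 ± 0.69 (limma adjusted p = 0.00267), -3.41 with a pseudocount of 5 and -4.89 without mutant replicate 1. PNPLA3, a lipase that releases retinol from retinyl palmitate in stellate cells, fell from 249.9 ± 25.7 to 133 ± 19.96. PNPLA4 and DGAT1, both able to move acyl groups to or from retinol, fell from 214 ± 18.9 to 128 ± 19.1 and from 595 ± 58.8 to 369 ± 36.0.

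Among the receptors that pair with RXR, 1 rose and 3 fell of 11 measured, with a median log2 fold change of -0.01. THRB, a thyroid hormone receptor, measured 515, 484 and 532 in WT and 72.4, 37.5 and 50.2 in mutant libraries, a 9.57-fold lower mean (log2 fold change -3.28 ± 0.22, limma adjusted p = 2.27e-05). VDR, the vitamin D receptor, measured 453, 637 and 583 in WT and 1112, 1324 and 1284 in mutant libraries, a 2.22-fold rise (limma adjusted p = 3.58e-04). PPARA, a fatty acid receptor, fell from 1098 ± 41.0 to 897 ± 16.4 (limma adjusted p = 0.0119, but 0.0612 without WT replicate 2 and 0.0509 without mutant replicate 3).

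Of 20 coregulators, which carry the receptors' signal to chromatin, 4 rose and 5 fell, with a median log2 fold change of -0.09. The acetyltransferase gene KAT2B fell from 920.1 ± 26.2 to 569 ± 58.5. The methyltransferase gene CARM1 and NRIP1, a repressor that retinoic acid is known to induce, rose, from 1853 ± 216 to 2797 ± 136 and from 8291 ± 354 to 12510.0 ± 726.

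Genes known to be induced by retinoic acid did not move one way: 7 rose and 8 fell of 19 measured, with a median log2 fold change of -0.0092. CYP26B1, STRA6 and NRIP1 stand on this list as well as on the lists above. RARRES2, which encodes the chemoattractant chemerin, measured 1736, 1663 and 1287 in WT and 145, 42.2 and 52.2 in mutant libraries (log2 fold change -4.48 ± 0.39, limma adjusted p = 9.83e-05). RARRES3, a phospholipase gene named for its response to retinoids, fell from 537 ± 129 to 172 ± 13.0. BHLHE40, a transcriptional repressor gene, rose from 2804 ± 250.1 to 5232 ± 416 (limma adjusted p = 1.69e-04). DHRS3 and CYP26B1, both known as genes that retinoic acid raises and whose products lower it, differed in opposite directions, while RARB with its response element did not pass the test.

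**Figure D5:**
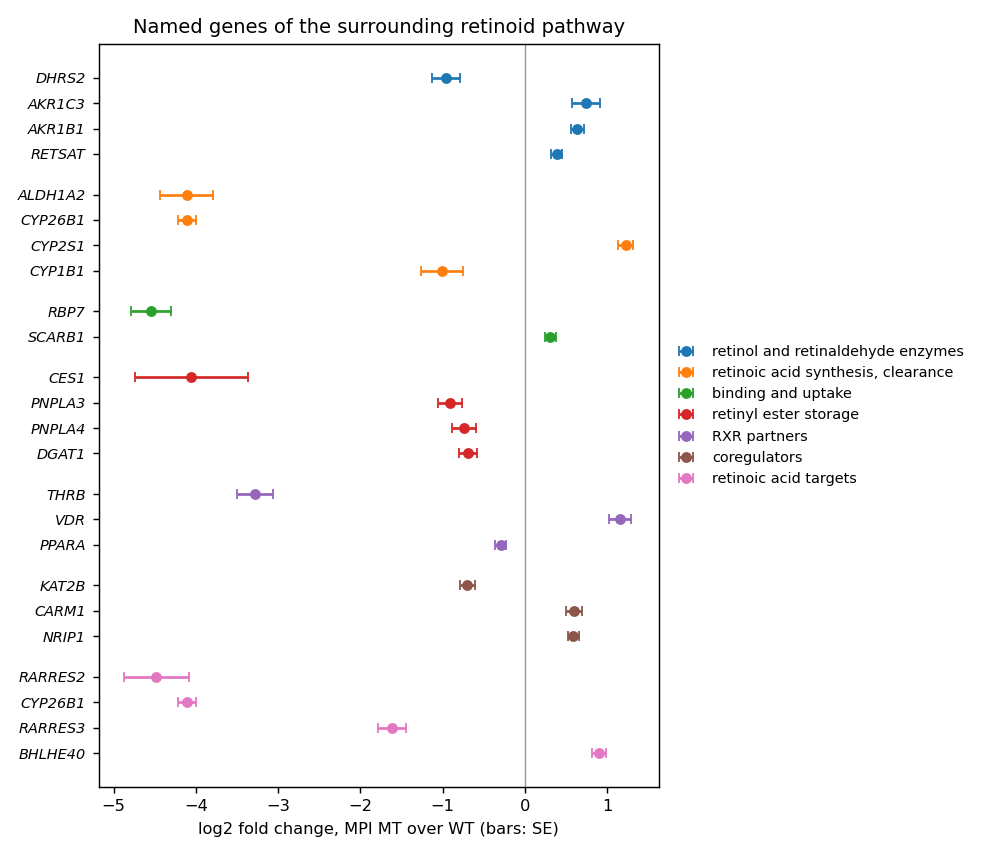
Log2 ratio of mutant to WT level (x axis, bars: SE) for the 23 named genes of 7 retinoid pathway lists (y axis, colours by list), CYP26B1 standing on 2 of them. ALDH1A2, CYP26B1, RBP7, CES1, THRB and RARRES2 lie between -4.55 and -3.28, and CYP2S1 at 1.23 and VDR at 1.16 lie farthest to the right.

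The genes most like DHRS3, the member with the largest called difference, across the 6 libraries were SIPA1L1, LXN and TULP4, out of 12271 genes with a mean of at least 100. The Pearson correlation of log2(value + 1) with DHRS3 was 0.997 for each, as a description over 6 libraries that all share the genotype difference, and 99 genes reached over 0.98. LXN, which encodes the carboxypeptidase inhibitor latexin, rose from 614 ± 153 to 3377 ± 596. SIPA1L1 and TULP4 rose less, from 1105 ± 54.8 to 1560.3 ± 92.9 and from 1501 ± 45.8 to 1893 ± 60.7.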

How the data were processed

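The labels' protocols give TRIzol extraction, poly(A) selection, random priming and paired-end Illumina HiSeq sequencing for all 6 libraries. Per the submitters' processing notes, STAR 2.5.2b and Trimmomatic 0.36 were used with DESeq2, featureCounts, Subread 1.5.2 and GRCh38, with no roles or settings. The values in the deposited table are a signal of unnamed unit. In each library 100% of them were whole multiples, within 0.01 read, of 1 step, as reads divided by a size factor (0.859 to 1.10) would be, so whole reads could be recovered. The deposited log2 fold changes and p-values of the authors served as an alternative only. The lowest mean was 9.83. Symbols stored as dates (22) were restored by Ensembl ID from GENCODE 29, the source of coordinates and exon lengths.

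Differences were tested by limma 3.58.1 (trend, robust; R 4.3.3) on log2(value + 1) in 17893 genes whose mean reached 10, by genotype alone, at a Benjamini-Hochberg threshold of 0.05. This scale understates fold changes of low genes, and per-library scaling hides any change in RNA per cell. Genes whose mean reached 10 only through the higher genotype, such as STRA6, ALDH1A2 and RBP7, are included in the counts of their lists. For such genes the filter favoured a difference. Replicates differed beyond counting noise (chi-square per gene 2.78 to 35.8). Same-numbered libraries deviated together across genes (correlations 0.545, 0.189 and 0.276), so the numbers in the labels were treated as pairs on the strength of the data. WT 3 and mutant 2 (0.299) and WT 2 and mutant 3 (0.168) did so as well, so it is mainly the libraries numbered 1 that share a deviation. Code was tested on simulated data.

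The members, lists and tests were chosen with earlier results of these data known. Beside the 10 genes and MPI, the text names up to 4 called genes of largest change per pathway list, with the higher genotype averaging 100 or more, and the 3 genes most like the member of largest called change. Marker genes and opposite-strand neighbours are named as well, and STRA6 was named after its values were seen. Some genes that this rule names are counted in their lists but not reported here. Alternatives were the replicate block, single libraries or both libraries numbered 1 left out, TMM and upper-quartile scaling, other filters (none, mean 50) and pseudocounts (0.5, 5), edgeR 4.0.16 with and without the block, DESeq2 1.42.0 and the authors' columns. The split by libraries numbered 1 was added after seeing the data.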

Additional observations from a re-analysis of the deposited data

How the results depend on the processing

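The calls of RXRA and DHRS3 were kept under all 18 alternatives, with log2 fold changes of -0.851 to -0.843 and 1.043 to 1.254 when 1 library was left out. Without both libraries numbered 1, DHRS3 was 0.948. Of 23 named pathway genes, 20 kept their call in every alternative, and CYP1B1, PPARA and DHRS2 did not. These genes were named because they were called with large changes in the same libraries. That most kept their call is therefore no independent support for it. With the replicate block, 2 of the 10 retinoid genes were higher and 2 lower, 4494 of all genes were higher, and ALDH1A3 (-0.28) and RBP4 (1.31) passed the test. The block changed no other call among the 10, and among the named pathway genes that of DHRS2 alone. With edgeR and the block, 2 were higher and 2 lower, 4647 of all genes were higher, ALDH1A3 (-0.27) and RARA (0.17) passed, RBP4 did not, and RARG was 0.001. With both libraries numbered 1 left out, 2 of the 10 were lower, 4989 of all genes were higher and 4788 lower, ALDH1A3 (-0.31) passed, and RXRB (0.027) and RARB (-0.084) changed sign. RARG was 0.001 with TMM. The cause of these changes was not tested. Leaving out 1 library gave 1 to 2 of the 10 genes higher, 15 to 27 pathway genes higher (15 without mutant replicate 3) and 1749 to 4415 of all genes higher. Of the latter, the count was 1864 without WT replicate 2, 4415 without mutant replicate 1, 1749 without mutant replicate 2 and 1829 without mutant replicate 3. ALDH1A3 ranged from -0.623 to 0.041, RXRB from -0.070 to 0.065, RARG from -0.099 to 0.050 and RBP4 from 0.567 to 2.004. The sign of RARG and RXRB is thus not determined. RBP4 was not tested at a mean of at least 50. At 21 WT reads, depth limits what can be said of RBP4.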

Other observations

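Genes that overlap the retinoid genes on the opposite strand gave the following values. AC015712.2, antisense to ALDH1A3, measured 233, 317 and 325 in WT and 213, 189 and 203 in mutant libraries, with no overlap (log2 fold change -0.51 ± 0.15, limma adjusted p = 0.0267). Unlike ALDH1A3 it did not pass the test between the libraries numbered 1 and the others (log2 difference -0.17 ± 0.12, limma adjusted p = 0.332), and the difference between these genes was not tested. SLC39A7, a zinc transporter gene beside RXRB, rose from 4514.5 ± 85.2 to 5268 ± 9.66 (limma adjusted p = 0.0177), while RXRB did not pass. RARA-AS1, at 126 ± 10.3 in WT and 134 ± 6.28 in the mutant, was not called (limma adjusted p = 0.638).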
